A study of Homo sapiens with 11 samples.

Results

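The chaperonin TRiC, also called CCT, was examined through the genes of its 8 subunits, TCP1, CCT2, CCT3, CCT4, CCT5, CCT6A, CCT7 and CCT8. The genes were taken by name, as the known subunits of the complex, and the rule used no measured value, though the complex was picked for study with earlier results of these data known. All 8 were found among the 25590 genes listed, and all 8 were among the 16630 genes with enough counts to be tested. RNA sequencing had been done on 11 tumours of PC-3, a human prostate carcinoma cell line. The cells were placed under the skin with matrigel in male athymic nude mice (Crl:NU-Foxn1nu), which lack most T cells, at 8 weeks of age. From day 7, the mice of 6 tumours received intraperitoneal A2M*, the transformed form of the protease inhibitor alpha-2-macroglobulin, at 5.6 mg per 20 g body weight, and the mice of 5 tumours received PBS as control. Each tumour gave 1 library, so every p-value refers to the spread between these tumours, all of which came from the same cell line.

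TRiC is a barrel of stacked rings in the cytosol, in which each ring holds a single copy of each of the 8 related proteins. Newly made proteins enter its cavity and fold there in a cycle driven by ATP. Actin, tubulin and many proteins with WD40 repeats depend on it, prefoldin hands over actin and tubulin chains, and phosducin-like proteins act together with it. Because the proteins are used in equal numbers, the levels of their RNAs relative to each other, and whether these rise and fall together from tumour to tumour, can be read from the same samples.

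The libraries held between 16958533 and 35874381 counts of human-specific reads, the smallest of them A2M* tumour PC3_tumor_129. The 8 subunits had between 3054 and 10681 counts in a tumour, which gives a counting error of 0.0261 or less on the log2 scale (SD). The cell identity was checked by markers. KRT8, KRT18, EPCAM and VIM, which PC-3 cells express, were abundant, with KRT8 between 205 and 280 RPKM (counts scaled to the exon length and to the library total), whereas the luminal prostate genes KLK3, listed at 0 counts in every tumour, and KLK2, with 0 to 1 counts, were at or near 0. Of 7 markers of endothelial, blood and stromal cells, CDH5 had too few counts for the test. The summed RPKM of these 7 lay between 73.6 and 133 in PBS tumours and between 72.3 and 175 in A2M* tumours, most of it from the collagen gene COL1A1. The host's own cells of these kinds are mouse cells, so these human-assigned counts do not measure them. Whether the counts came from PC-3 cells or from mouse reads assigned to human was not tested.

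The 8 genes lie on 7 chromosomes. In GRCh37, the build of the counts, TCP1 lies at chr6:160199530-160210735 (minus strand, 12 exons in the canonical transcript), CCT2 at chr12:69979206-69995350 (plus strand, 16 exons), and CCT3 at chr1:156278759-156337664 (minus strand, 14 exons). CCT4 (chr2:62095220-62115806, minus strand, 14 exons) and CCT7 (chr2:73460548-73480149, plus strand, 12 exons) are both on chromosome 2. CCT5 lies at chr5:10250041-10266501 (plus strand, 11 exons), CCT6A at chr7:56119378-56131682 (plus strand, 14 exons) and CCT8 at chr21:30428126-30446118 (minus strand, 15 exons).

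Because the levels of the 8 RNAs moved together, as described after the levels, the sequences around their starts were examined. RefSeq windows of 250 bases before to 50 after the start (GRCh38.p14) were used for 7 of the 8 subunits, not for CCT6A. CCT2 and CCT4 had 2 windows each. The CCT5 window and the later CCT2 window belong to starts 616 and 430 bases downstream of the RefSeq gene start. Both of these windows therefore lie within their genes. The CCAAT box, read on both strands, was found in the windows of 4 of these 7, CCT2, CCT3, CCT8 and TCP1, and in 39.7% of 27305 genes. The GC box (GGGCGG) was found in 5 of 7 and in 48.3% of genes. A pair of heat shock units (GAANNTTC or TTCNNGAA) was found for CCT2, in its later window, CCT4 and TCP1, and in 16.2% of genes, while a run of 3 such units, which contains the pair, was found in 0 of 7 and in 0.608% of genes. The E-box CACGTG was found in 0 of 7 and in 8.77% of genes, and the NRF1 motif in CCT3 and in the CCT5 window within the gene, and in 6.98% of genes. These matches are a description of the letters only. The 130 bases before the start are shown, 5′ to 3′, for 3 subunits with a CCAAT box in this stretch. Capitals mark CCAAT on either strand (ATTGG on the other) and, in CCT2 alone, the ETS motif CCGGAAG on the other strand, which was found in 12.2% of genes.
CCT2, chr12:69585329-69585458, plus strand: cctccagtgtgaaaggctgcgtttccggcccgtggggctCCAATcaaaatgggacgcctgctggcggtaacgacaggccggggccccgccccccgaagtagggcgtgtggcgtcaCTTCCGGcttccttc
CCT3, chr1:156338293-156338422, minus strand: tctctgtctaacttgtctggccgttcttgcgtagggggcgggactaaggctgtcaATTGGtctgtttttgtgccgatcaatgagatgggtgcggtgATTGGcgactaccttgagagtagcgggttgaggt
CCT8, chr21:29073649-29073778, minus strand: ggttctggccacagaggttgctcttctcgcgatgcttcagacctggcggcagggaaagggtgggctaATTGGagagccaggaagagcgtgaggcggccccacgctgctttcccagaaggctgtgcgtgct

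The levels of the 8 subunit RNAs lay within a narrow range. In RPKM, which allows genes of different length to be compared, CCT7 was highest at 128.3 ± 12.6 and CCT3 followed with 120.7 ± 19.6 (SD, n = 11 tumours here and below). CCT4, with 86.99 ± 11.1, CCT8, with 86.73 ± 9.52, TCP1, with 86.0 ± 8.02, and CCT2, with 84.6 ± 10.1, were close together. CCT5 had 75.22 ± 9.98 and CCT6A was lowest with 69.92 ± 6.35. Among the 16630 genes tested, CCT7 held rank 426 and CCT6A rank 914.

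The order was the same in every tumour at some steps only. CCT3 exceeded CCT4 in 11 of 11 tumours. CCT2 exceeded CCT5 in 11 of 11, but with coding length in place of exon length the mean of CCT5 was above that of CCT2, as given with the shares. CCT7 was above CCT3 in 9 tumours, and CCT5 above CCT6A in 9. CCT4 exceeded CCT8 in 5 tumours, CCT8 exceeded TCP1 in 5 and TCP1 exceeded CCT2 in 7, so these 4 could not be put in order.

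**Figure D1:**
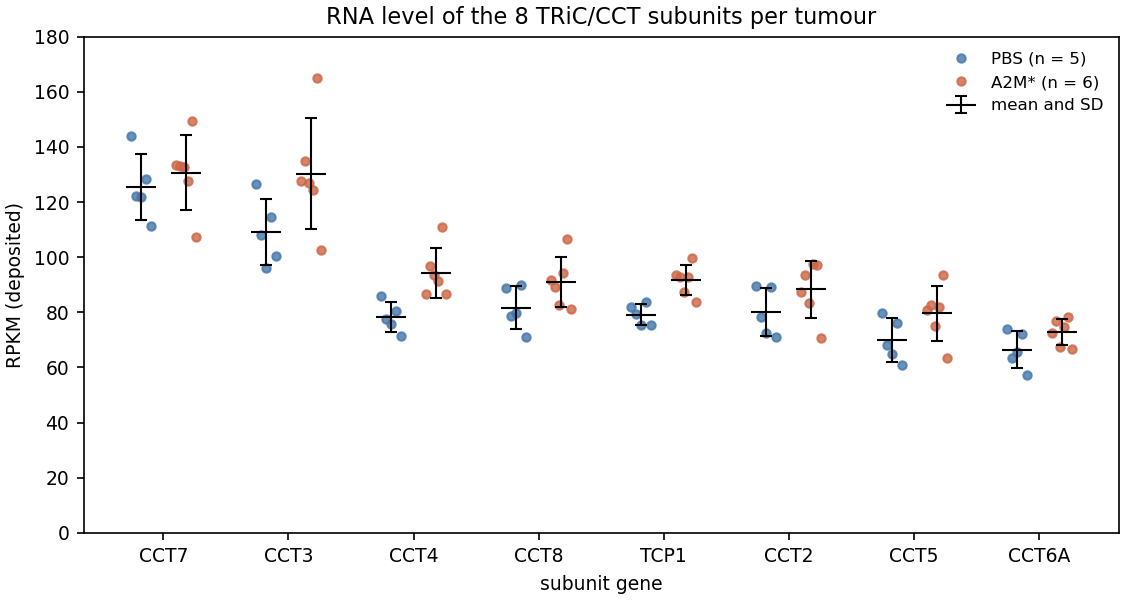
Level of each subunit in RPKM (vertical axis) in every tumour, with PBS and A2M* tumours as separate points and the group means with SD, ordered by the mean over all 11 tumours. CCT7 and CCT3 stand above the other 6 subunits, with means of 128.3 and 120.7 RPKM against 69.92 to 86.99 RPKM.

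For CCT7, the RPKM values of PBS tumours PC3_tumor_123 to PC3_tumor_127 were 144, 122.2, 121.8, 128.5 and 111.2. In the A2M* tumours PC3_tumor_112 and PC3_tumor_128 to PC3_tumor_132, CCT7 stood at 133.4, 133.2, 132.7, 127.8, 149.5 and 107.2 RPKM. The groups overlapped, and the lowest and the highest value were both in A2M* tumours, PC3_tumor_132 and PC3_tumor_131. CCT3, in the same order, had 126.7, 108, 95.97, 114.6 and 100.6 RPKM in PBS tumours, and 127.6, 135, 126.8, 124.6, 164.9 and 102.7 RPKM in A2M* tumours. A2M* tumour PC3_tumor_131 was again highest, and its CCT3 value lay well above the others.

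The values of CCT5, in which inherited variants are known to cause a sensory neuropathy, were 79.81, 68.14, 64.91, 76.27 and 60.73 RPKM in PBS tumours PC3_tumor_123 to PC3_tumor_127. In A2M* tumours PC3_tumor_112 and PC3_tumor_128 to PC3_tumor_132 they were 80.92, 82.78, 75.08, 81.89, 93.47 and 63.37 RPKM. PBS tumour PC3_tumor_127 was lowest and A2M* tumour PC3_tumor_131 highest. CCT6A, the lowest of the 8, ran from 57.37 RPKM in PBS tumour PC3_tumor_127 to 78.2 RPKM in A2M* tumour PC3_tumor_131, with a median of 72.14 RPKM. CCT2, whose protein is also known as a receptor that takes aggregated proteins to autophagy, ran from 70.67 to 97.7 RPKM with a median of 87.35 RPKM. CCT8 ran from 71.1 to 106.6 RPKM with a median of 88.86 RPKM.

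Counts on CCT6A have a limit of their own, because the human genome carries pseudogenes that resemble it. CCT6P1 matched 61.0% of the CCT6A transcript at 91.5% identity and CCT6P3 matched 80.7% of it at 89.7% identity. CCT6P1 had 189 to 452 counts and CCT6P3 417 to 868, which equalled 5.30% to 8.25% and 9.99% to 17.9% of the CCT6A count. How many reads were moved between these genes in counting was not tested. CCT6B, the close relative of CCT6A known from testis, had 27 to 82 counts, and CCT8L2, a relative of CCT8, 0 to 3.

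To compare proportions, each level was expressed as a share of the summed RPKM of the 8 subunits, where equal amounts would give 12.5%. The summed level ran from 618.8 to 771 RPKM in PBS tumours and from 662.6 to 900.7 RPKM in A2M* tumours. CCT7 made up 17.42% ± 0.904 and CCT3 16.27% ± 0.934. CCT4, CCT8, TCP1 and CCT2 made up 11.78% ± 0.648, 11.75% ± 0.433, 11.67% ± 0.542 and 11.45% ± 0.530. CCT5, with 10.16% ± 0.294, and CCT6A, with 9.49% ± 0.415, had the smallest shares.

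The shares depended on the length used. The exon models that the counting used run to 3403 bases for CCT5 and 2032 for CCT7, while the coding lengths of the 8 differ little, between 1593 and 1668 bases. With coding length in place of exon length, CCT3 came first with 15.83%, then CCT7 with 14.51% and CCT5 with 14.23%. The other 5, among them CCT2 with 10.88%, then lay between 10.6% for CCT6A and 11.47% for TCP1. By the mean over the 11 tumours, CCT3 and CCT7 therefore took the 2 largest shares on either length, and the place of CCT5 changed with the length. On coding length the means of CCT7 (SD 0.772) and CCT5 (SD 0.397) lay close together. CCT5 was then above CCT7 in some tumours, such as A2M* tumour PC3_tumor_130.

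**Figure D2:**
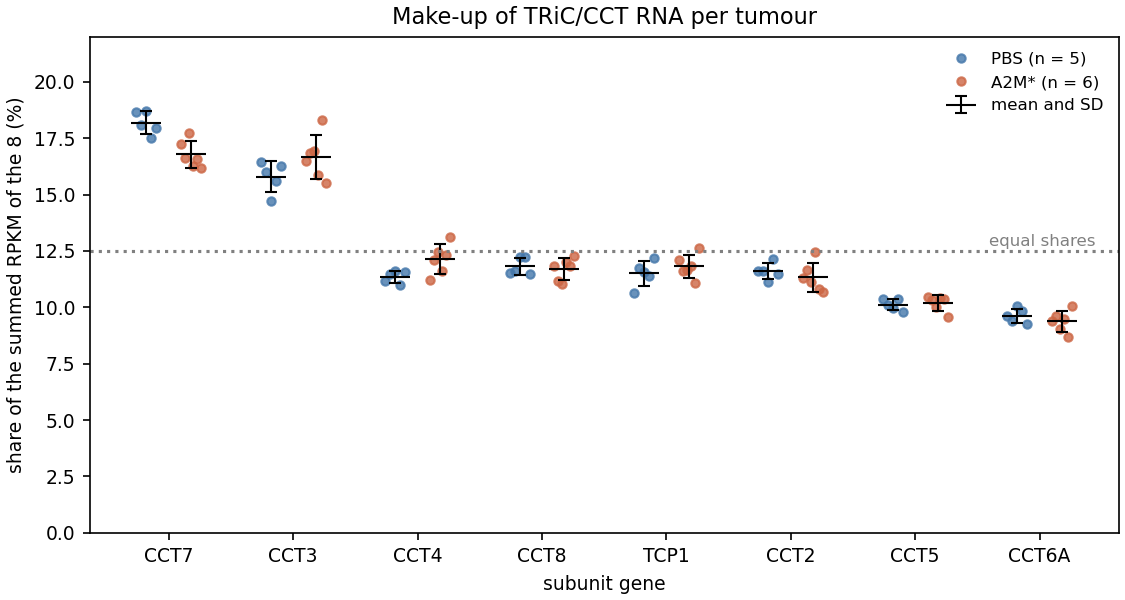
Share of each subunit in the summed RPKM of the 8 (percent, vertical axis) in every tumour of both groups, with a line at the equal share of 12.5%. Shares varied less than levels, from 2.89% (CCT5) to 5.74% (CCT3) as coefficients of variation against 9.08% to 16.2% for RPKM.

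Proportions held more closely than levels did. The log2 ratio of 2 subunits had a median SD over the tumours of 0.0988, between 0.0558 for CCT2 to CCT5 and 0.141 for CCT3 to CCT6A, over 28 pairs. The log2 RPKM of a single subunit had a median SD of 0.166, between 0.134 and 0.225. The counting error stated above was smaller than the smallest of these.

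The 8 subunits rose and fell together from tumour to tumour. All 28 pairwise Pearson correlations of log2 CPM (counts scaled to the TMM-adjusted library total) were positive, with a median r of 0.824 and a range from 0.543 to 0.948. Spearman's rho had a median of 0.786 and lay between 0.573 and 0.927. For comparison, the 133004 relations of a subunit with any tested gene were computed, and those with genes outside the complex had a median r of -0.0096. Of these, 1.27% reached the median r of the subunit pairs and 13.9% reached the lowest. The tumours share the cell line and the processing, so these values describe 11 tumours and not independent experiments.

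The closest pair was CCT2 and CCT5, with r = 0.948 (permutation p = 4e-05, 0.0257 after adjustment over all 133004 relations) and rho = 0.90 (permutation p = 0.00033, adjusted 0.0739). CCT3 and CCT5 had r = 0.934 (permutation p = 6e-05, adjusted 0.0291), and CCT5 and CCT8 r = 0.923 (permutation p = 2e-05, adjusted 0.0238). In all, 6 of 28 pairs had an adjusted p under 0.05 by Pearson's r, against 0.766% of relations with genes outside the complex, and 0 of 28 did so by Spearman's rho, against 0% of the relations outside. Each r was also computed without the 2 tumours farthest from the median of the first gene named, so these tumours could differ between pairs. It was 0.882 for CCT2 and CCT5 and 0.896 for CCT5 and CCT8, both without PBS tumour PC3_tumor_127 and A2M* tumour PC3_tumor_132. For CCT3 and CCT5 it was 0.939, without PBS tumour PC3_tumor_125 and A2M* tumour PC3_tumor_131.

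**Figure D3:**
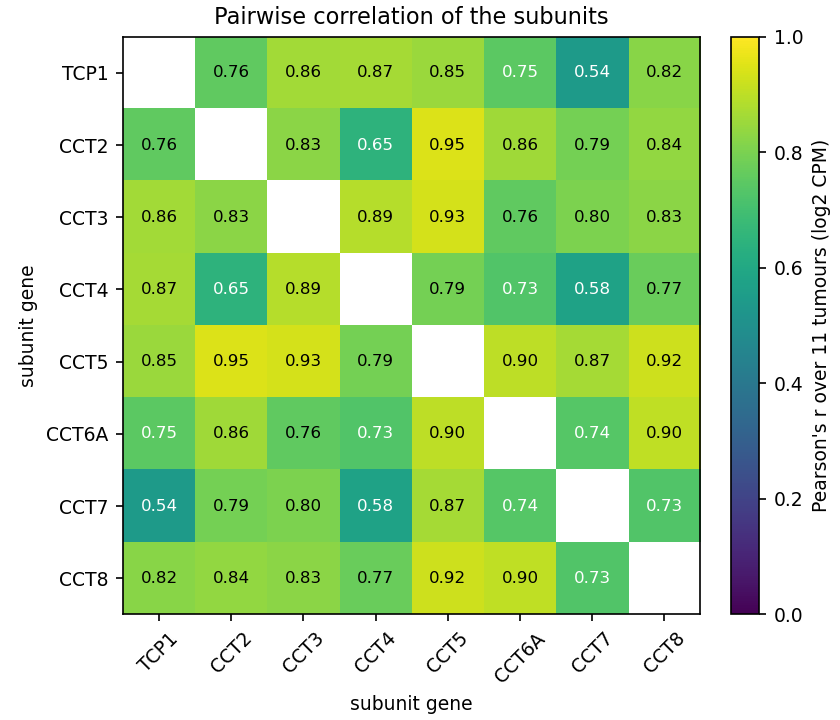
Pearson r of log2 CPM over 11 tumours for each of the 28 pairs of subunits, on a colour scale. All pairs are positive, the pairs of CCT5 with CCT2, CCT3 and CCT8 are highest at 0.923 to 0.948, and the pairs of CCT7 with TCP1 and CCT4 are lowest.

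CCT5 followed the rest of the complex most closely. Its r with the mean of the other 7 subunits (as z-scores) was 0.988, which 0 of the tested genes outside the complex reached. CCT3 (0.930), CCT8 (0.916), CCT2 (0.888), CCT6A (0.882) and TCP1 (0.850) followed, and between 0.0963% and 0.957% of other genes were as close to the same mean. CCT4 had r = 0.818, which 2.05% of other genes reached, and CCT7 r = 0.779, which 2.82% reached. These values rank the subunits and carry no test.

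The lowest correlations were those of CCT7 with TCP1 (r = 0.543, permutation p = 0.0835, adjusted 0.302) and with CCT4 (r = 0.577, permutation p = 0.065, adjusted 0.269). Removing the group means raised them to 0.816 and 0.822. Without the 2 tumours farthest from the median of TCP1 and of CCT4, respectively, they were 0.334 and 0.209. With the group means removed, the 28 correlations lay between 0.657 and 0.948. Over the 6 A2M* tumours alone, the median r was 0.868, between 0.584 and 0.977. Correlations were computed over 6 or more tumours only, so none is given for the 5 PBS tumours alone.

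The mean z-score of the 8 subunits gives the place of each tumour. It was lowest in PBS tumour PC3_tumor_127, at -1.54, and in A2M* tumour PC3_tumor_132, at -1.16, and highest in A2M* tumour PC3_tumor_131, at 1.60. The other PBS tumours lay at 0.306 (PC3_tumor_123), -0.405 (PC3_tumor_124), -0.748 (PC3_tumor_125) and -0.0064 (PC3_tumor_126), and the other A2M* tumours at 0.580 (PC3_tumor_112), 0.793 (PC3_tumor_128), 0.120 (PC3_tumor_129) and 0.459 (PC3_tumor_130). The groups overlapped. The score had r = -0.128 and rho = -0.173 with the log2 total count. Without both end tumours, PC3_tumor_127 and PC3_tumor_131, the median pairwise r was 0.713 and the lowest 0.209.

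**Figure D4:**
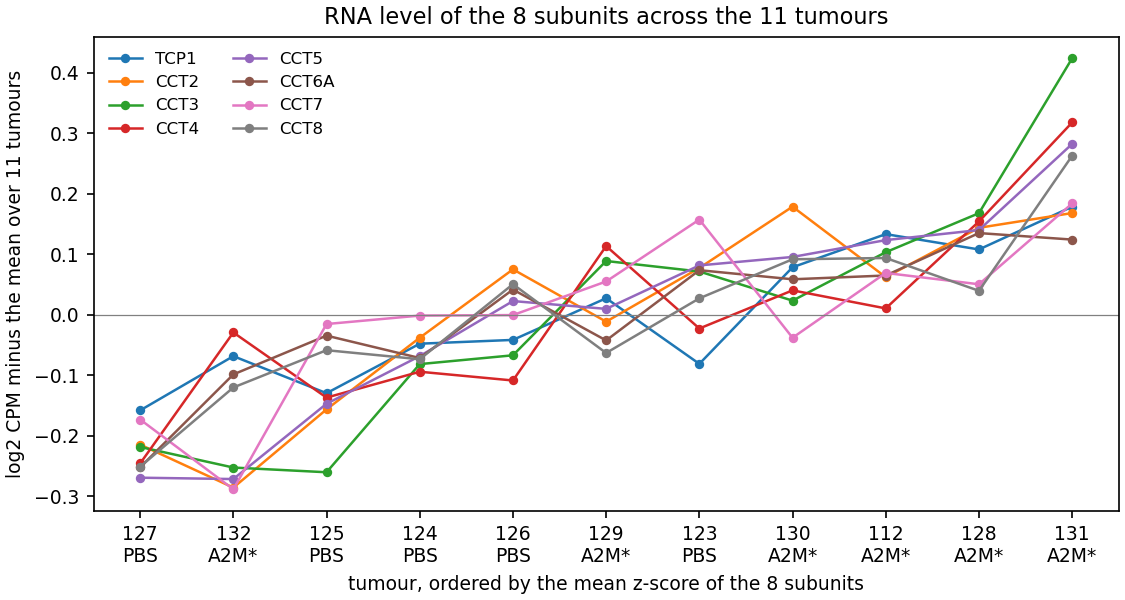
Log2 CPM of each subunit (coloured lines) minus its mean over the 11 tumours (vertical axis), in each tumour (horizontal axis, numbered as in its label), with the tumours ordered by the mean z-score of the 8. All 8 lines lie below 0 in PBS tumour PC3_tumor_127, whose mean z-score was -1.54, and above 0 in A2M* tumour PC3_tumor_131, whose mean z-score was 1.60.

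Genes outside the complex with the same profile were sought among 10587 genes with a mean of at least 10 CPM, by r with the mean z-score of the 8 over the 11 tumours. The closest were YARS2, the mitochondrial tyrosyl-tRNA synthetase (0.960), COPS8, a subunit of the COP9 signalosome (0.959), DDX10, a helicase (0.957), HSPA9, the mitochondrial HSP70 (0.952), and TARS, the cytosolic threonyl-tRNA synthetase (0.952). The most opposite were WDR54 (-0.952), KIAA0319L (-0.947) and SPAG4 (-0.943). Among all tested genes outside the complex, 51 (0.307%) had r above 0.9 and 32 (0.193%) r under -0.9. The 6 genes of the PC-3 marker list had a median r of -0.427, and 1 of them had an r above 0. KRT19, a keratin, was the lowest of this list with r = -0.814, which 98.2% of other genes reached. The median r of the markers of other cell types was 0.0229.

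The comparison of A2M* with PBS asked whether the treatment was followed by other levels of the chaperonin. It was made with edgeR's quasi-likelihood test over all 16630 genes, and a gene was called where the Benjamini-Hochberg adjusted p fell under 0.01. Of the 8 subunits, 0 passed, as did 0.00% of all genes, for which the smallest adjusted p was 0.599. All 8 log2 fold changes were above 0, compared with 49.4% of all genes, but since the subunits vary together they are not 8 separate signs. Their median was 0.13, and that of all genes -0.0021. In RNA of whole tumours, more RNA per cell and more cells of a kind cannot be told apart.

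CCT4 had the largest log2 fold change. Its level was 199.8, 190.2, 184.6, 188.3 and 171.2 CPM in PBS tumours PC3_tumor_123 to PC3_tumor_127, and 204.5, 225.9, 219.6, 208.7, 253.1 and 198.9 CPM in A2M* tumours PC3_tumor_112 and PC3_tumor_128 to PC3_tumor_132. Of the A2M* tumours, PC3_tumor_132 alone lay below the highest PBS tumour. The means were 186.8 ± 10.4 (SD, n = 5) and 218.5 ± 19.6 CPM (SD, n = 6), which gave 0.23 as log2 fold change (SE 0.0711, 95% confidence interval 0.073 to 0.379, unadjusted p = 0.00687 and adjusted p = 0.640 by edgeR).

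TCP1, the subunit first described and the source of the name of the complex, had 198.7, 203.4, 192.1, 204.3 and 188.4 CPM in PBS tumours and 230.6, 226.6, 214.2, 222, 237.9 and 200.5 CPM in A2M* tumours, in the same order. Again tumour PC3_tumor_132 alone lay within the range of the PBS tumours. The means were 197.4 ± 6.95 and 222.0 ± 13.2 CPM, and the log2 fold change was 0.17 (SE 0.0590, 95% confidence interval 0.043 to 0.296, unadjusted p = 0.0124 and adjusted p = 0.640 by edgeR). TCP1 and CCT4 were the 2 of 8 subunits with an unadjusted p under 0.05, against 7.08% of all genes, 3.55% being higher and 3.53% lower in A2M* tumours. The count was 4 without A2M* tumour PC3_tumor_132, where CCT3 and CCT5 joined them. Over all genes, that fit had 1684 at an unadjusted p under 0.05 by edgeR, against 1178 in the main fit. The count of subunits was 3, with CCT3, without PBS tumour PC3_tumor_123 (1133 of all genes). It was also 3, with CCT3, under upper quartile normalization (1190) and with library size only (1330).

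CCT3 had a log2 fold change between those of CCT4 and TCP1 and a wider spread, with 298.8, 268.7, 237.4, 271.4 and 244.4 CPM in PBS tumours and 305.5, 319.5, 302.4, 289, 381.5 and 238.7 CPM in A2M* tumours. Its log2 fold change was 0.21 (SE 0.103, 95% confidence interval -0.0087 to 0.434, adjusted p = 0.713). The groups overlapped, with A2M* tumour PC3_tumor_132 near the bottom. The log2 fold changes of CCT5 (0.14), CCT8 (0.11), CCT2 (0.10) and CCT6A (0.09) had standard errors between 0.0707 and 0.0939 and adjusted p between 0.810 and 0.876. CCT7 had the smallest log2 fold change, with 259.2 ± 21.0 CPM in PBS tumours, 262.0 ± 27.7 CPM in A2M* tumours and a log2 fold change of 0.02 (SE 0.0840, 95% confidence interval -0.165 to 0.196, adjusted p = 0.982). Leaving out PBS tumour PC3_tumor_127 or A2M* tumour PC3_tumor_131 turned the CCT7 value to -0.024 or -0.020.

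**Figure D5:**
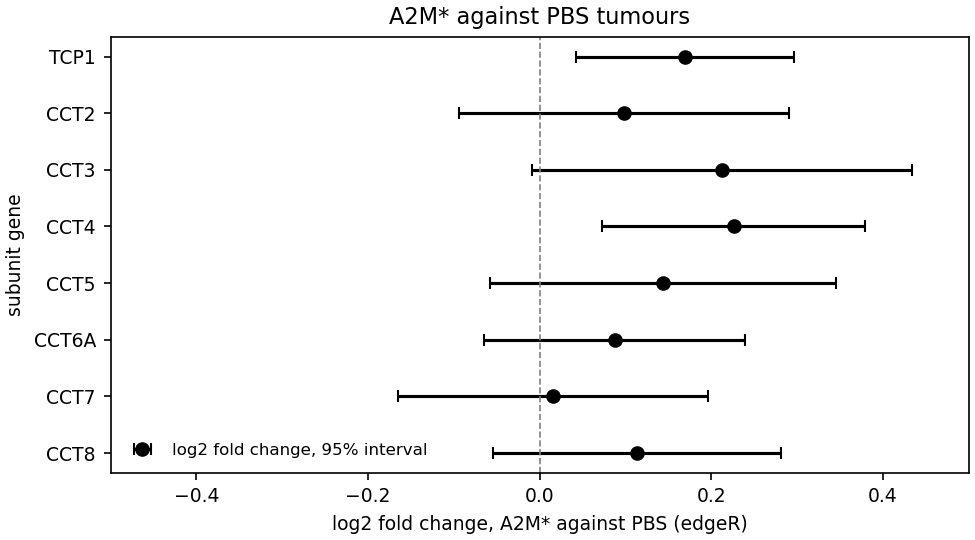
Log2 fold change of each subunit, A2M* over PBS, with its 95% confidence interval from edgeR, and a line at 0. The 8 estimates lie between 0.02 (CCT7) and 0.23 (CCT4), and the intervals of TCP1 and CCT4 alone do not include 0.

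Whether the ranges of the groups overlapped depended on the scaling. In TMM-scaled CPM, 0 of 8 subunits had ranges apart, where 0.710% of all genes did. In the deposited RPKM, TCP1 and CCT4 had every A2M* tumour above every PBS tumour, against 0.848% of all genes with ranges apart and 0.679% in this direction. For TCP1, the gap was small, from 83.75 RPKM in PBS tumour PC3_tumor_126 to 83.76 RPKM in A2M* tumour PC3_tumor_132. For CCT4, it ran from 85.95 RPKM in PBS tumour PC3_tumor_123 to 86.62 RPKM in A2M* tumour PC3_tumor_112.

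Within the complex, the share of CCT7 differed most between the groups. It was 18.68%, 18.09%, 18.69%, 17.49% and 17.97% in PBS tumours, and 17.25%, 16.64%, 17.72%, 16.28%, 16.6% and 16.19% in A2M* tumours, in the order used above. The means were 18.18% ± 0.510 and 16.78% ± 0.593, and the ranges overlapped through PBS tumour PC3_tumor_126 and A2M* tumour PC3_tumor_129. CCT4 had a share of 11.35% ± 0.278 in PBS tumours and 12.13% ± 0.667 in A2M* tumours. None of the 8 shares had ranges apart, whereas 1.11% of all genes did when set against the same sum, 1.09% with the A2M* range below the PBS range.

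Of the 28 ratios between subunits, 2 had ranges that did not overlap, and both were with CCT7. The log2 ratio of CCT3 to CCT7 was -0.203 in PBS tumours and -0.0115 in A2M* tumours, a difference of 0.19. The log2 ratio of CCT4 to CCT7 was -0.68 and -0.469, a difference of 0.21. Among all tested genes set against CCT7 in the same way, 0.156% had ranges apart. CCT7 was taken for this background because both ratios held it, so the share does not match a count over 28 ratios. Set against the sum of the 8 subunits, 1.11% of all genes had ranges apart. These ratios were not chosen in advance and carry no test.

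Several of them start close to a gene on the opposite strand. TCP1 and MRPL18, a mitochondrial ribosomal protein gene, start 109 bases apart and had r = 0.767 over the tumours, which 1.8% of other genes reached with TCP1. CCT5 and FAM173B start 32 bases apart and had r = 0.444 (reached by 23.0%), CCT7 and PRADC1 181 bases and 0.512 (14.8%), and CCT4 and COMMD1 53 bases and 0.0472 (45.4%). CCT6A and PSPH, a gene of serine synthesis, start 81 bases apart and had r = -0.60 (91.7%). MRPL18 had a log2 fold change of 0.19 (adjusted p = 0.642) and FAM173B of 0.34 (SE 0.0794, unadjusted p = 0.000723, adjusted p = 0.599 by edgeR). The libraries were made with the TruSeq RNA kit, which does not mark the strand, so reads from overlapping parts of such neighbours cannot be told apart.

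Genes of proteins that work with TRiC were compared with the mean z-score of the 8 subunits, and by treatment. Over all tested genes outside the complex, the median r with this score was -0.0118. Prefoldin had 6 of 6 genes tested and 0 called in either direction. With the mean z-score, 5 of 6 had an r above 0, PFDN2 being highest at 0.620 (reached by 10.8% of other genes), and PFDN5 had r = -0.710. The median of the 6 was 0.529. Between prefoldin genes the median r was -0.0313 over 15 pairs. Log2 fold changes of the 6 lay between -0.13 and 0.13. Of the phosducin-like and thioredoxin-like regulators, 3 of 3 were tested and 0 called, and PDCL3 had r = 0.855, which 0.824% of other genes reached. The 6 tubulin cofactors, which take tubulin onward, had 0 called and a median r of -0.106.

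Among proteins that TRiC folds, the 12 actin and tubulin genes had 0 called, and 11 of 12 had an r above 0, with a median of 0.373. Between these 12 genes the median r was 0.656 over 66 pairs, from 0.246 to 0.964, beside 0.824 over the 28 pairs of the chaperonin. TUBA1C (0.772, reached by 3.33% of other genes) and TUBA1B (0.686, 7.30%), both alpha-tubulins, were highest. ACTB (0.227, 34.9%) and ACTG1 (0.0497, 46.1%), the cytoplasmic actins, were lower. Of 9 WD40 and other clients, 0 were called. CDC20, an activator of the anaphase-promoting complex (0.793, reached by 2.51% of other genes), and STRAP (0.789, 2.64%) were highest. The median of the 9 was -0.0212.

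The other chaperonins, 7 genes of which 6 were tested, also had 0 called. HSPD1 and HSPE1, the mitochondrial chaperonin and its lid, had log2 fold changes of 0.28 (SE 0.101, unadjusted p = 0.0155, adjusted p = 0.642) and 0.29 (SE 0.105, unadjusted p = 0.0149, adjusted p = 0.641) by edgeR. Their r with the mean z-score of the TRiC subunits was 0.795 and 0.548, reached by 2.46% and 14.9% of other genes. Among 3 regulators of chaperone genes, 0 were called. MYC had r = 0.672, which 8.02% of other genes reached, HSF1 -0.275 and HSF2 0.183.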

How the data were processed

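RNA sequencing of 11 PC-3 tumours was analysed, 5 from PBS and 6 from A2M* mice, with groups as labelled. The authors separated human from mouse reads with xenome, mapped the former against hg19 (TopHat2), assigned them to RefSeq genes by featureCounts, and deposited whole-number counts. The deposited RPM divide counts by the total and the deposited RPKM also by exon length; bcl2fastq was version 1.8.4, while versions of xenome and featureCounts and the strand setting of the counting are not given in the sources used here. Mouse reads were not analysed here.

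Counts were filtered with filterByExpr (16630 genes kept), TMM-normalized and tested with edgeR 4.0.16 in R 4.3.3. Its standard error is the fold change divided by the square root of F. Correlations used log2 CPM (prior count 2) and 100000 permutations, adjusted over all 133004 relations, with a smallest possible p of 1e-05. Shares used RPKM. Alternatives were DESeq2 1.42.0, limma 3.58.1, other normalizations and filters, and each tumour left out. Transcripts were aligned with BLAST+ 2.17.0. The code was tested on simulated data. The named genes were the 8 subunits, the listed related genes, the 5 genes most like and the 3 most unlike the subunits, and the neighbours; members and lists were chosen with earlier results of these data known. Promoters are RefSeq sequences of GRCh38.p14, and positions of genes are from GENCODE mapped to GRCh37. The values of 1 listed marker gene are not reported here.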

Additional observations from a re-analysis of the deposited data

How the results depend on the processing

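For the comparison of A2M* with PBS over all genes, the count of different genes was 0 with edgeR (1178 genes at an unadjusted p under 0.05) and 1 with DESeq2 (1233 genes at an unadjusted p under 0.05), that gene being no subunit. Of the 16630 genes tested, 241 had an unadjusted p no higher than 0.01 in both tools together, among them 1 of the 8 subunits, CCT4. With each tumour left out in turn, the count was 0 each time (682 to 1684 genes at an unadjusted p under 0.05). Of the alternative values for the subunits' log2 fold changes, 142 kept their direction and side of the threshold and 2 did not. The exceptions were CCT7 at -0.024 without PBS tumour PC3_tumor_127 and -0.020 without A2M* tumour PC3_tumor_131 (range with a tumour left out -0.024 to 0.069). Without PBS tumour PC3_tumor_127, CCT2 was 0.06, CCT6A 0.04 and CCT8 0.07. Without A2M* tumour PC3_tumor_131, CCT3 was 0.14 and CCT8 0.07, and without PC3_tumor_132 CCT2 was 0.16. Of the alternative shares, 99 stayed within 1 SD and 5 moved. Those 5 came from coding length, an alternative chosen after seeing the data: CCT2 10.88%, CCT5 14.23%, CCT6A 10.6%, CCT7 14.51% and CCT8 11.05%. The median pairwise correlation was 0.713 without both end tumours (also chosen after seeing the data) and 0.757 to 0.846 with a single tumour left out. No paired analysis was possible because the groups share no tumour numbers. Protein lengths were not run, since no protein table was used here. With 1 library per tumour and 11 tumours, differences could be missed, and the confidence intervals given do not set a limit of detection. CCT4 and TCP1 had intervals above 0 but an adjusted p of 0.640 each by edgeR.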
